A study of Mus musculus with 24 samples.

Results

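The mitochondrial carrier family was followed through gastrocnemius muscle of sedentary and ambulatory mice. Its members were the protein-coding genes whose symbol, looked up from the Ensembl gene identifier, begins with Slc25a, and 47 of the 55416 genes in the count file met this rule. All 24 libraries came from mice labelled C56BL6J, taken here as C57BL/6J wild type, which the study obtained at 8 weeks of age, and every mouse was fasted before muscle was collected. There were 6 libraries in each of 4 groups. Male SMC and female SMC mice spent 8 weeks in a small mouse cage that limits movement, whereas male sham and female sham mice were free to move. The model restricts activity of the whole animal, with no gene altered in any group. The labels number the libraries in a single series, each library was taken as 1 mouse, and the p-values measure the spread between these libraries.

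The inner mitochondrial membrane is closed to most solutes, and Slc25 proteins are the carriers that move them across it. They share a fold built from repeated pairs of membrane-spanning helices, and most exchange a substrate in the matrix for another in the cytosol. In contracting muscle the family supplies ADP and phosphate to ATP synthase, returns ATP to the cytosol, passes reducing equivalents inward through the malate-aspartate shuttle, and admits acylcarnitines for fatty acid oxidation. Other members carry amino acids, iron and the cofactors that matrix enzymes need, and several have no settled substrate.

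Total counts per library ranged from 23026627 to 36880413. The summed level of 8 skeletal muscle markers lay between 66720 and 145100 CPM (counts scaled to library size), and all 8 were detected in every group. Male sham replicate 4 and female sham replicate 7 stood apart by their slow fibre markers, which summed to 86.43 and 72.91 CPM, against 692.5 to 4459 CPM in the other 22 libraries. Without both libraries, 1 carrier was called for SMC over both sexes, as with all libraries, and 1 rather than 0 between the sexes. Calls among all genes also rose in both comparisons, between the sexes from 324 to 511. The added carrier call thus came with a rise that was not limited to carriers.

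Promoter sequence is shown for the 4 carriers on which the results turn, namely Slc25a4, which had the highest level, Slc25a5, the carrier called for SMC, and Slc25a33 and Slc25a23, which followed Slc25a5 in order of p in the comparison of SMC with sham over both sexes. Each is the RefSeq window of 300 bases (250 before the RefSeq start and 50 after it) on GRCm38.p6, written 5′ to 3′ on the strand of the gene. The RefSeq start can differ from the annotated gene start. The Slc25a5 window ends before its annotated start (36795651), whereas the annotated start of Slc25a4 (46211284) lies inside its window. Capitals mark matches to the GC box (GGGCGG), the CCAAT box (CCAAT) or the E-box (CACGTG), read on either strand.
Slc25a4 (chr8:46211013-46211312, minus strand): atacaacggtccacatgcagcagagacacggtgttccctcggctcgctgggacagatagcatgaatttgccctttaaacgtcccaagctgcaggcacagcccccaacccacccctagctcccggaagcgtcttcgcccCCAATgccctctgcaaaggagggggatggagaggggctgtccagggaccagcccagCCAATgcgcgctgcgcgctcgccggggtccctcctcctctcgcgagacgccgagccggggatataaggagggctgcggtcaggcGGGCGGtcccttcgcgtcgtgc
Slc25a5 (chrX:36795347-36795646, plus strand): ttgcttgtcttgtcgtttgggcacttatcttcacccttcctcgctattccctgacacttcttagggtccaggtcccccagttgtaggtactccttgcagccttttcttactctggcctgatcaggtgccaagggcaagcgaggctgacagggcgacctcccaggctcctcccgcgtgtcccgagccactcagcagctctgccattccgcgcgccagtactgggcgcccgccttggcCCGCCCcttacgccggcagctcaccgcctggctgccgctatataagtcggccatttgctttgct
Slc25a33 (chr4:149774218-149774517, minus strand): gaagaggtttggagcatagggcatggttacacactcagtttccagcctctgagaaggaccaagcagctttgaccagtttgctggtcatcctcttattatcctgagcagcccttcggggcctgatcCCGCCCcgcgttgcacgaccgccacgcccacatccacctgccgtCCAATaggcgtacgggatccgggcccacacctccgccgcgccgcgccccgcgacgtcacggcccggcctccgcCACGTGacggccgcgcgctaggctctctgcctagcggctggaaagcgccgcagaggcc
Slc25a23 (chr17:57059814-57060113, minus strand): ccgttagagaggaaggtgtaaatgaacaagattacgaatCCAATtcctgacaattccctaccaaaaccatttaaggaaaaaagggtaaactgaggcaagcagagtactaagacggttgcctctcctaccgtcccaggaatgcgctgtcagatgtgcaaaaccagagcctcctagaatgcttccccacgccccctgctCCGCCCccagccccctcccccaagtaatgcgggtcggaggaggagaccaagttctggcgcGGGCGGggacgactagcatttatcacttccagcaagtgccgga
A promoter was found by symbol for 36 of the 47 members. The GC box was present in 83.3% of these 36 and in 35.7% of all 32851 promoters, and the median GC content was 60.1% against 52.7%. The 2 sets were chosen differently. For each member the window nearest the annotated gene start was taken. In contrast, all promoters of 300 bases entered, with no such choice per gene and no chromosome left out by rule. The CCAAT box was present in 47.2% of members and 37.4% of all promoters, the E-box in 16.7% and 7.15%, and the letters TATAAA in 2.78% and 13.6%. The letters AAGGTCA, bound by estrogen-related receptors, were present in 2.78% of members against 4.72% of all promoters, and the cAMP response element TGACGTCA in 2.78% against 1.79%. The core GCATGCGC of the NRF1 site, a short form taken after the result of a longer form had been seen, was present in 5.56% against 2.71%. Both strands were searched for every motif. The 2 forms of the ADP/ATP carrier each hold a single GC box in the window, and Slc25a4 also holds 2 CCAAT boxes where Slc25a5 holds 0. Their windows sit differently relative to the annotated gene starts. These matches describe the letters of the windows alone.

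The family was dominated by the genes of ATP supply. Levels of different genes are compared as CPM divided by the exon length in kilobases, averaged over the 24 mice. This length merges the exons of all annotated transcripts of a gene (2 for Slc25a4, 8 for Slc25a3). The order and shares below therefore depend on that annotation. Slc25a4, the ADP/ATP carrier of heart and skeletal muscle, stood at 632 CPM per kilobase (range over mice 507 to 803), above 99.7% of protein-coding genes. Slc25a3, the phosphate carrier, followed at 82.0 (59.5 to 98.3). Slc25a11, the oxoglutarate carrier, and Slc25a12, the calcium-regulated aspartate/glutamate carrier Aralar, which together serve the malate-aspartate shuttle, stood at 63.2 (41.7 to 80.3) and 50.6 (39.8 to 58.3). The range of Slc25a11 overlapped those of Slc25a3 and Slc25a12, which did not overlap each other, and the lowest value of Slc25a4 lay above every value of the other members. These 4 genes made up 84.45% of the summed level per kilobase of the family, and Slc25a4 by itself made up 64.47%.

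**Figure D1:**
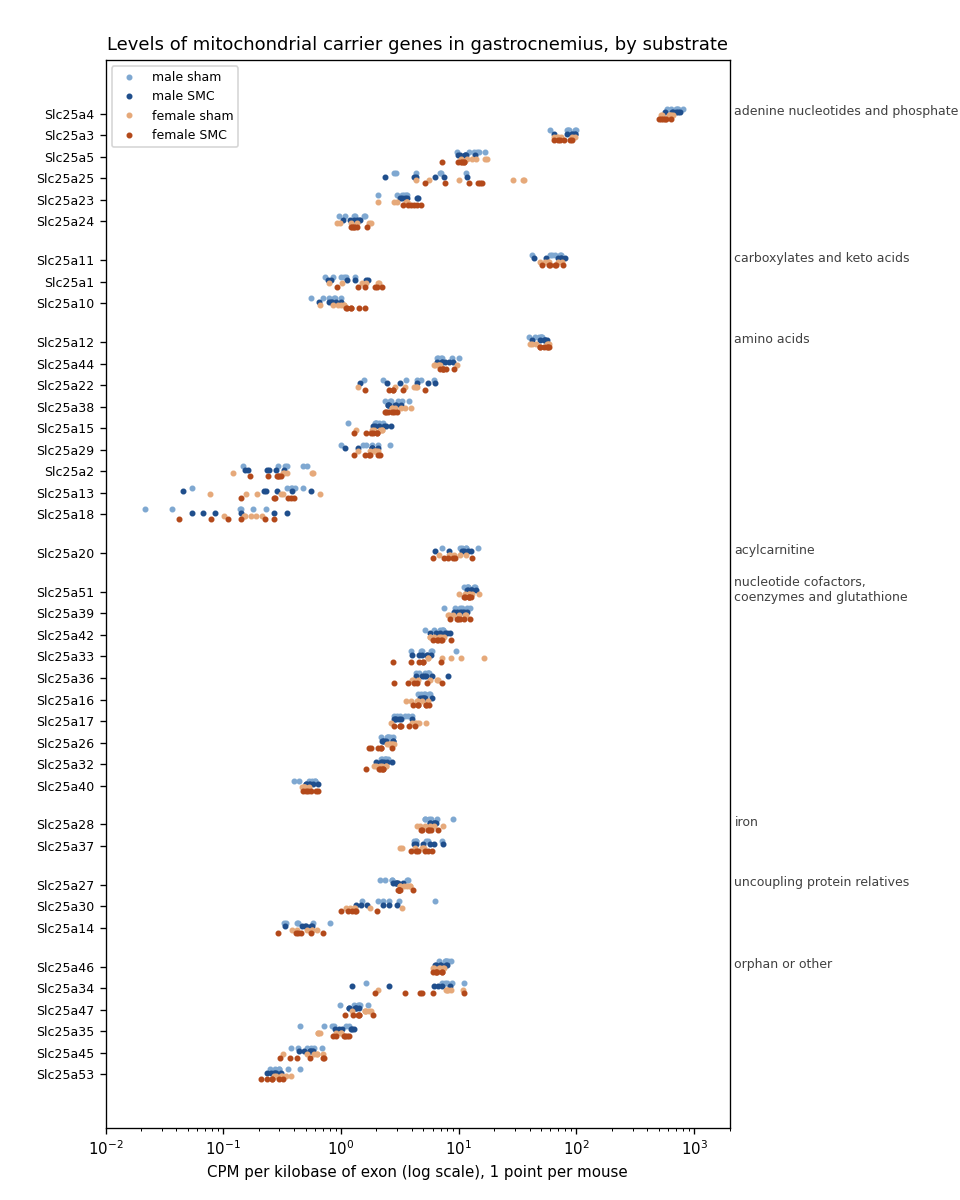
Levels of the tested carriers named in the text in each of the 24 mice, as CPM per kilobase of exon on a log axis, with carriers grouped by substrate. Slc25a4 lies to the right of all others, and Slc25a3, Slc25a11 and Slc25a12 form a second tier between 39.8 and 98.3.

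A middle tier followed, in which the order of neighbours was within their spread. Slc25a51, the NAD+ carrier, stood at 12.3 CPM per kilobase (9.98 to 14.9) and Slc25a5, the ADP/ATP carrier of proliferating and non-muscle cells, at 12.2 (7.24 to 17.4). Slc25a25, a calcium-regulated ATP-magnesium/phosphate carrier, had a mean of 10.9 with the widest range of this tier, from 2.37 to 35.7. Slc25a39, which supplies glutathione to the matrix, stood at 10.2 and Slc25a20, the carnitine/acylcarnitine carrier, at 9.74. Slc25a44, a branched-chain amino acid carrier, Slc25a46, an outer membrane member linked to fission, Slc25a42, a coenzyme A carrier, Slc25a34, an orphan, and Slc25a33, a pyrimidine nucleotide carrier, lay between 6.12 and 7.53.

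Below these, 13 members reached up to 5.85 CPM per kilobase and had lower levels than the middle tier. They included the iron carriers Slc25a28 (mitoferrin-2, 5.85) and Slc25a37 (mitoferrin-1), the pyrimidine nucleotide carrier Slc25a36, Slc25a16, the glutamate carrier Slc25a22, the ATP-magnesium/phosphate carrier Slc25a23, the peroxisomal cofactor carrier Slc25a17, the brain uncoupling relative Slc25a27, the glycine carrier Slc25a38, the S-adenosylmethionine carrier Slc25a26, the folate and FAD carrier Slc25a32, and Slc25a30. A further 14 tested members lay between 0.148 and 1.96. This group held the ornithine carriers Slc25a15 (1.96) and Slc25a2 (0.306), the basic amino acid carrier Slc25a29, the citrate carrier Slc25a1 (1.36), the dicarboxylate carrier Slc25a10 (0.961), the ATP-magnesium/phosphate carrier Slc25a24, the glutathione-linked Slc25a40, the uncoupling relative Slc25a14, and the orphan or less settled Slc25a35, Slc25a45, Slc25a47 and Slc25a53. It also held Slc25a13 (citrin, the aspartate/glutamate carrier of liver, 0.304) and Slc25a18 (0.148), close paralogs of the far more abundant Slc25a12 and Slc25a22.

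The other 6 members did not pass the filter on low counts and were not tested. Slc25a43 had 114 counts over the 24 libraries, Slc25a21, the oxodicarboxylate carrier, had 44, Slc25a48 had 36, of which 23 came from a single library, and Slc25a41 had 11. Slc25a31, the ADP/ATP carrier of germ cells, had 2 counts, and Slc25a54 had 0 in every library. Thus 41 members were tested, among 16408 genes in all.

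The first comparison asked whether SMC changed carrier expression. Calls were made by the quasi-likelihood test of edgeR at a false discovery rate (FDR) under 0.05, adjusted by Benjamini-Hochberg over all genes tested. Log2 fold changes are SMC over sham. In males, 0 of the 41 carriers were called by edgeR, DESeq2 or limma's voomWithQualityWeights, where edgeR called 0% of all genes. Of 16408 genes, DESeq2 called 133 and voomWithQualityWeights 93 in males. By unadjusted p under 0.05, edgeR gave 1 carrier, against 11% of all genes. It was higher, as were 5.41% of all genes at this p, and 0 carriers were lower, against 5.59%. In all, 21 of the 41 had a log2 fold change above 0, against 49.1% of all genes. Their median was 0.00278, beside -0.00441 over all genes. For males, 0 carriers had groups that did not overlap, against 0.902% of all genes. In females, edgeR called 0 carriers, against 0.341% of all genes, DESeq2 called 1 (Slc25a33, FDR 0.0231) and voomWithQualityWeights 0. Of 16408 genes, DESeq2 called 268 and voomWithQualityWeights 16 in females. By unadjusted p, 7 carriers differed in females, against 12.5% of all genes, with 2 higher (all genes 5.02%) and 5 lower (all genes 7.47%). The female median was -0.0494 beside -0.011 over all genes, with 15 members above 0 and 26 below, where 47.6% of all genes were above 0.

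Averaged over the sexes, with 12 SMC and 12 sham mice, edgeR called 1 carrier, Slc25a5, against 2.36% of all genes. By unadjusted p, 11 carriers differed, against 17.5% of all genes. Of these, 4 were higher, where 7.90% of all genes were higher at this p, and 7 were lower, where 9.65% were lower. With 18 of 41 members above 0, against 47.6% of all genes, the median was -0.0291, beside -0.00886 over all genes. In these bulk samples, fewer cells of a type and less RNA per cell cannot be told apart.

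**Figure D2:**
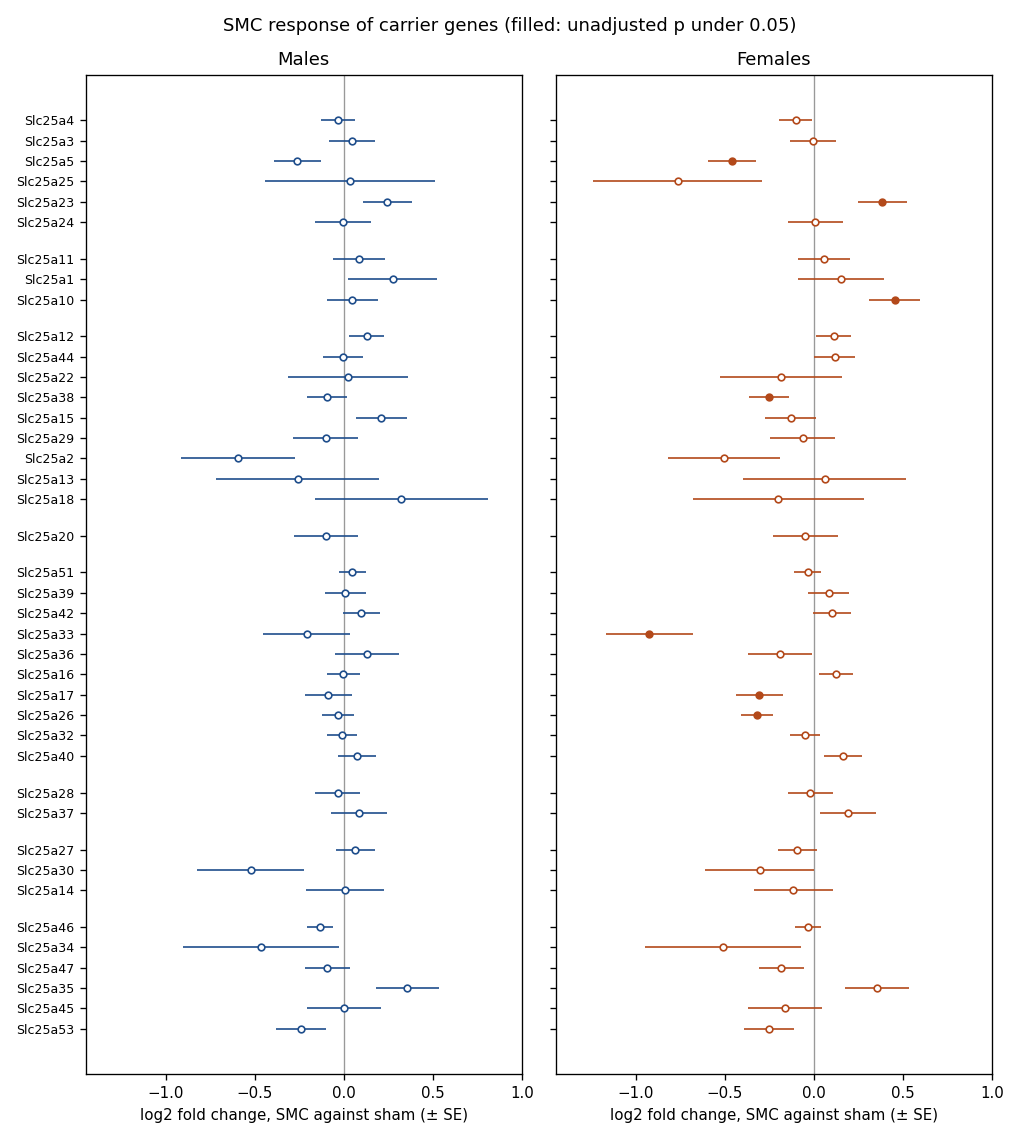
Log2 fold change of SMC over sham for the same carriers in males and in females, with the standard error from the edgeR fit, grouped by substrate. Estimates span -0.59 to 0.36 in males and -0.93 to 0.45 in females, with Slc25a33 the lowest and Slc25a10 the highest of the females.

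The adenine nucleotide and phosphate carriers held the called gene. Slc25a5 was found at 15.9 to 27.4 CPM in sham males (median 22.8) and at 16.1 to 22.6 in SMC males (median 18.6). In females it ran from 17.2 to 28.7 in sham (median 22.3) and from 11.9 to 18.4 in SMC (median 17.3). The SMC groups had the lower medians in both sexes, with overlapping ranges. Slc25a5 fell by 0.36 on the log2 scale over both sexes (SE 0.0937, FDR 0.0412), that is to 0.779 of the sham level. The estimate was -0.46 in females (SE 0.133, FDR 0.114) and -0.26 in males (SE 0.132, FDR 0.478). The FDR of the average over the sexes rose to between 0.0507 and 0.0744 when any of 15 libraries was left out (male sham 1, 2, 3 and 6, female sham 8 and 12, male SMC 13, 14, 16, 17 and 18, and female SMC 19, 20, 21 and 23). The log2 fold change stayed between -0.40 and -0.32. Markers of other cell types moved in both directions beside it. Over both sexes, 5 of 7 fibroblast markers (median -0.208) and 7 of 8 macrophage markers (median -0.143) had log2 fold changes below 0, with 0 called in either list. The 7 red blood cell markers were also below 0 (median -0.229). By sex these went opposite ways, with all 7 below 0 in males (median -0.488) and all 7 above 0 in females (median 0.0689). Of the 8 macrophage markers, 8 were below 0 in males and 5 in females, and of the 7 fibroblast markers, 4 and 6. In contrast, over both sexes, 7 of 8 endothelial cell markers (median 0.0816) and 7 of 7 Schwann cell markers (median 0.281) were above 0. So were 5 of 9 adipocyte markers (median 0.0255), and 0 were called in these lists. The fibroblast sum was 662.8 to 1196 CPM in male sham, 785.9 to 1126 in male SMC, 509.8 to 1563 in female sham and 621.9 to 880.1 in female SMC. The macrophage sum was 76.29 to 138.9, 74.47 to 104.7, 43.91 to 187.6 and 75.18 to 106.2 CPM in the same groups. Each fibroblast and macrophage marker was detected, and the part of any of these cell types in the result was not tested.

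Slc25a4 did not follow its paralog past the test. It was at 1389 to 1889 CPM in sham males (median 1657) and 1328 to 1801 in SMC males (median 1597), and at 1219 to 1550 in sham females (median 1457) and 1193 to 1500 in SMC females (median 1306). The ranges of SMC and sham overlapped over most of their width in each sex. Over both sexes the log2 fold change was -0.07 (SE 0.066, FDR 0.646), and the difference between the paralogs was not tested. Per kilobase, Slc25a5 stood at 1.94% ± 0.211 (SD, n = 6) of Slc25a4 in male sham, 1.67% ± 0.147 in male SMC, 2.35% ± 0.567 in female sham and 1.81% ± 0.214 in female SMC. The ratio was widest in sham females, from 1.66% to 3.22%. The counts of close paralogs and of their pseudogenes can share reads, and the reads of Slc25a5, at so small a share of Slc25a4, are uncertain to that extent.

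Slc25a3 differed little between SMC and sham, with log2 fold changes of 0.05 (SE 0.129) in males and -0.01 (SE 0.129) in females. Of the calcium-regulated ATP-magnesium/phosphate carriers, which set the adenine nucleotide pool of the matrix, Slc25a23 was higher in SMC at the unadjusted p, and past the FDR with DESeq2 (0.0423) but not with edgeR. It was at 10.9 to 19.4 CPM in sham males (median 17.8), 16.6 to 23.8 in SMC males (median 18.997), 10.97 to 19.1 in sham females (median 17.3) and 17.8 to 25.3 in SMC females (median 21.3). Male sham replicate 4 and female sham replicate 7, both with little slow fibre RNA, lay lowest, and the upper end of SMC was above all sham mice in each sex. The log2 fold change was 0.31 over both sexes (SE 0.0975, FDR 0.0812), 0.39 in females (FDR 0.212) and 0.24 in males (FDR 0.535). Slow fibre markers had positive estimates beside it, 10 of 10 over both sexes (median 0.57) and 10 of 10 in females (median 0.613), with 0 called and with sums of 72.91 to 3123 CPM in sham mice and 692.5 to 4459 in SMC mice. Their part in the Slc25a23 difference was not tested, and without both libraries with little slow fibre RNA that difference was 0.22 (FDR 0.0977). Slc25a24 was at 0.00 over both sexes. Slc25a25 was at -0.77 in females with an SE of 0.476 and at 0.03 in males with an SE of 0.477, and it was called in neither sex.

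**Figure D3:**
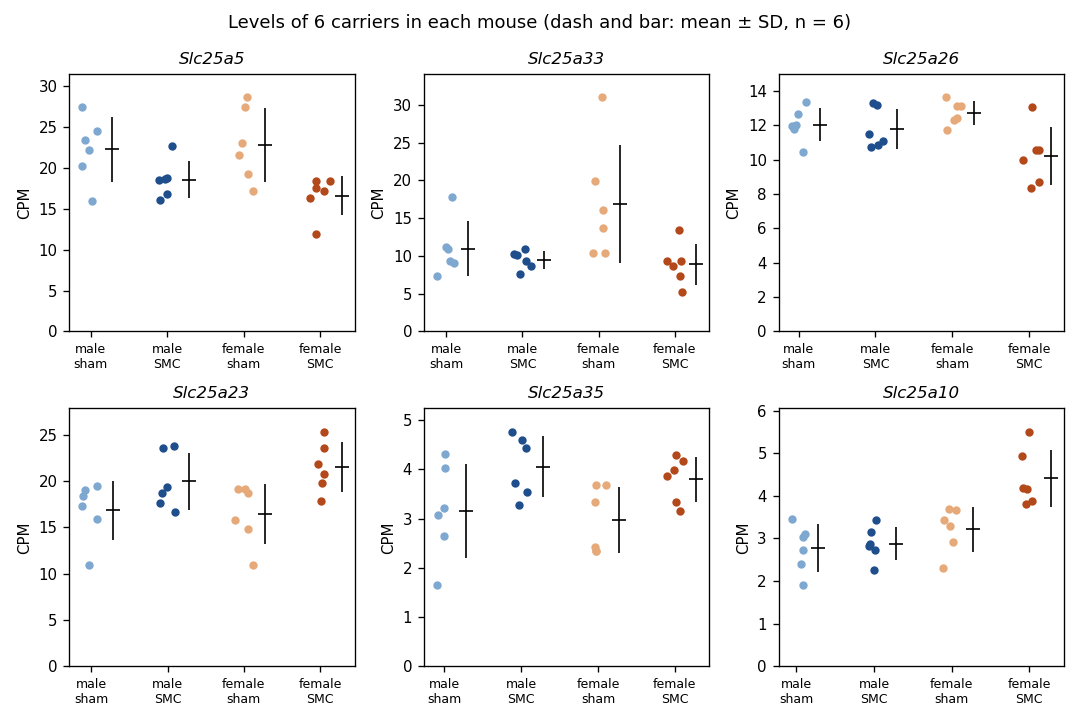
CPM of 6 carriers in each mouse by group, with the mean and SD (n = 6) beside the points. Slc25a5 and Slc25a33 have lower SMC means and Slc25a23 higher SMC means in both sexes, and the SMC females lie wholly above the sham females for Slc25a10.

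Carriers of nucleotide cofactors, coenzymes and glutathione numbered 11, and their median over both sexes was 0.00625. Of these, 3 were lower and 1 higher at the unadjusted p, at which 9.65% of all genes were lower and 7.90% higher. Slc25a33, which imports pyrimidine nucleotides for mitochondrial DNA and RNA synthesis, had the lowest log2 fold change of the 41 members in females. It was at 10.4 to 31.0 CPM in sham females (median 14.9) and 5.18 to 13.5 in SMC females (median 9.01). In males it was at 7.38 to 17.8 in sham (median 10.1) and 7.60 to 10.9 in SMC (median 9.67). All SMC females except replicate 19 lay below every sham female, whereas the male medians were close. Its log2 fold change was -0.93 in females (SE 0.244, FDR 0.0907) and -0.21 in males (SE 0.244, FDR 0.816). Without female sham replicate 12, which had the highest value, the female estimate was -0.65. The other pyrimidine carrier, Slc25a36, was at -0.19 in females and 0.13 in males.

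Slc25a26, which brings S-adenosylmethionine into the matrix for methylation, was at 11.7 to 13.6 CPM in sham females (median 12.8) and 8.35 to 13.1 in SMC females (median 10.3). All SMC females except replicate 22 lay below the sham range. The estimate was -0.32 in females (SE 0.0905, FDR 0.112) and -0.03 in males. Slc25a17 was the other member of this class that was lower at the unadjusted p. Slc25a51, the NAD+ carrier and the highest of the class, gave 0.05 in males (SE 0.0771) and -0.04 in females (SE 0.0771).

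The carboxylate carriers link the matrix to cytosolic malate, succinate, oxoglutarate and citrate. All 3 tested members had a positive log2 fold change in each sex, and 1 of them, Slc25a10, passed the unadjusted p in females. Slc25a10, the dicarboxylate carrier, was at 2.31 to 3.68 CPM in sham females (median 3.36) and 3.80 to 5.50 in SMC females (median 4.18). Every SMC female lay above every sham female. It was the only carrier of the 41 whose groups did not overlap in females, where 1.03% of all genes did not overlap. The log2 fold change was 0.45 in females (SE 0.143, FDR 0.146) and 0.05 in males, where sham ran from 1.90 to 3.47 CPM and SMC from 2.27 to 3.43. Adipocytes express this carrier. The summed level of 9 adipocyte markers was 258.7 to 370.4 CPM in sham females (median 289) and 232.7 to 463.7 in SMC females (median 299.9). In females 8 of the 9 markers had a log2 fold change above 0 (median 0.674), and in males 8 of the 9 were below 0 (median -0.24). Their part in the result was not tested. Slc25a11 gave 0.08 in males and 0.06 in females, and Slc25a1, the citrate carrier, 0.27 and 0.15.

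Among the amino acid carriers, 9 were tested, with a median of -0.0803 over both sexes and 2 lower and 0 higher at the unadjusted p (all genes 9.65% and 7.90%). Those 2 were Slc25a2, with counts of 5 to 25 per library, and Slc25a38, which imports glycine for heme synthesis. Slc25a12, the main aspartate/glutamate carrier, was at 292 to 371 CPM in sham males (median 360.5), 308 to 416 in SMC males (median 394.9), 298 to 425 in sham females (median 372.8) and 363 to 428 in SMC females (median 400.9). The SMC medians were higher in each sex, with wide overlap, and the log2 fold change was 0.12 over both sexes (SE 0.0698, FDR 0.386). The 4 enzymes of the malate-aspartate shuttle that act with Slc25a12 and Slc25a11, cytosolic and mitochondrial aspartate aminotransferase and malate dehydrogenase, had a median of 0.0226, and 0 of the 4 passed the unadjusted p.

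The acylcarnitine carrier Slc25a20 was at 34.9 to 69.9 CPM in sham males (median 53.4) and 30.3 to 62.0 in SMC males (median 52.9), and at 33.2 to 55.4 in sham females (median 42.7) and 29.2 to 63.2 in SMC females (median 41.1). The ranges nearly coincided, and the log2 fold change over both sexes was -0.07 (SE 0.127, FDR 0.817). Of the 4 enzymes of the carnitine shuttle, Crat, carnitine acetyltransferase, was at 0.16 over both sexes (SE 0.0651, FDR 0.181) and Cpt1a, the liver form of carnitine palmitoyltransferase 1, at -0.30 in females (SE 0.125, FDR 0.302), neither past the FDR. The iron carriers gave -0.03 (Slc25a28) and 0.14 (Slc25a37) over both sexes. The 3 relatives of the uncoupling proteins gave -0.05 (Slc25a14), -0.01 (Slc25a27) and -0.41 (Slc25a30, SE 0.214), with 0 past the unadjusted p.

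Of the orphan or other members, 6 were tested, and 1 was higher and 1 lower at the unadjusted p (all genes 7.90% and 9.65%). Slc25a35 was at 1.66 to 4.30 CPM in sham males (median 3.14) and 3.28 to 4.76 in SMC males (median 4.08), and at 2.34 to 3.68 in sham females (median 2.88) and 3.16 to 4.28 in SMC females (median 3.93). The medians were higher in SMC in both sexes, and the estimates were nearly equal, 0.36 in males and 0.35 in females (over both, SE 0.127, FDR 0.133). Slc25a53 was the lower member, at -0.25. Slc25a46, the highest of the class, gave -0.08 over both sexes (SE 0.0515, FDR 0.416).

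Within female sham, the same 3 mice stood at an end of the group for several of these genes. Replicates 7, 8 and 12 were the highest for Slc25a25 (228 to 281 CPM, against 33.9 to 79.4 in replicates 9, 10 and 11), for Slc25a33 (16.1 to 31.0 against 10.4 to 13.7) and for Slc25a5 (23.005 to 28.7 against 17.2 to 21.5). The same 3 mice were the lowest for Slc25a23 (10.97 to 15.8 against 18.7 to 19.1) and Slc25a35 (2.34 to 2.42 against 3.34 to 3.68). This split was noticed after the values were seen and was not tested. The female contrasts of these 5 carriers rest on sham mice that differ among themselves in this way.

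The next comparison asked whether the sexes responded differently. The difference in response (male minus female log2 fold change) gave 0 carriers by edgeR, DESeq2 or voomWithQualityWeights, where edgeR called 0% of all genes. Of 16408 genes, DESeq2 called 1 and voomWithQualityWeights 0. By unadjusted p, 2 carriers differed, against 5.13% of all genes. Both lay above 0, as did 3% of all genes at this p, and 0 lay below, against 2.13%. These were Slc25a26, at 0.29 (SE 0.128, FDR 0.946), and Slc25a33, at 0.72 (SE 0.345, FDR 0.955), both lower under SMC in females than in males. Slc25a33 kept a p under 0.05 in 6 of the 24 fits that left out a library. The median difference over the 41 carriers was 0.0392, beside 0.00844 over all genes, and 25 lay above 0, against 51.6% of all genes. For Slc25a5, lower in SMC mice, the difference between the sexes was 0.20 (SE 0.187, FDR 0.9965) and was not called.

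The last comparison set sham males against sham females, that is, the carriers of ambulatory muscle in each sex. edgeR called 0 of 41, against 1.97% of all genes, DESeq2 called 1 (Slc25a25) and voomWithQualityWeights 1 (Slc25a27). Of 16408 genes, DESeq2 called 575 and voomWithQualityWeights 368. By unadjusted p, 9 carriers differed, against 15.5% of all genes, with 4 higher in males (all genes 6.23%) and 5 lower (all genes 9.23%). The median was -0.0214 (all genes -0.00221), with 20 members above 0, against 49.6% of all genes. Groups that did not overlap were found for 0 carriers and for 1.13% of all genes. The summed CPM of the family was 3243 ± 338 (SD, n = 6) in male sham, 3080 ± 305 in female sham, 3259 ± 307 in male SMC and 2931 ± 256 in female SMC, which all overlapped.

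Slc25a25 had the widest difference of the family, with 22.1 to 90.9 CPM in sham males (median 44.2) and 33.9 to 281 in sham females (median 154). The females fell into a low and a high set of 3 mice each, and the low set lay within the male range. The log2 fold change of males over females was -1.75 (SE 0.488, FDR 0.061), and it stayed between -2.053 and -1.498 when any library was left out. Among SMC mice, Slc25a25 ran from 18.7 to 91.5 in males and 40.3 to 125 in females.

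Slc25a30, also called kidney mitochondrial carrier protein, was at 6.83 to 28.6 CPM in sham males (median 11.1) and 5.07 to 15.1 in sham females (median 5.93). The highest mouse of each group was one of the libraries with little slow fibre RNA, male sham replicate 4 and female sham replicate 7. Males over females gave 0.84 (SE 0.302, FDR 0.161), with 0.49 without male sham replicate 4 (FDR 0.317) and 1.15 without female sham replicate 7 (FDR 0.0303).

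**Figure D4:**
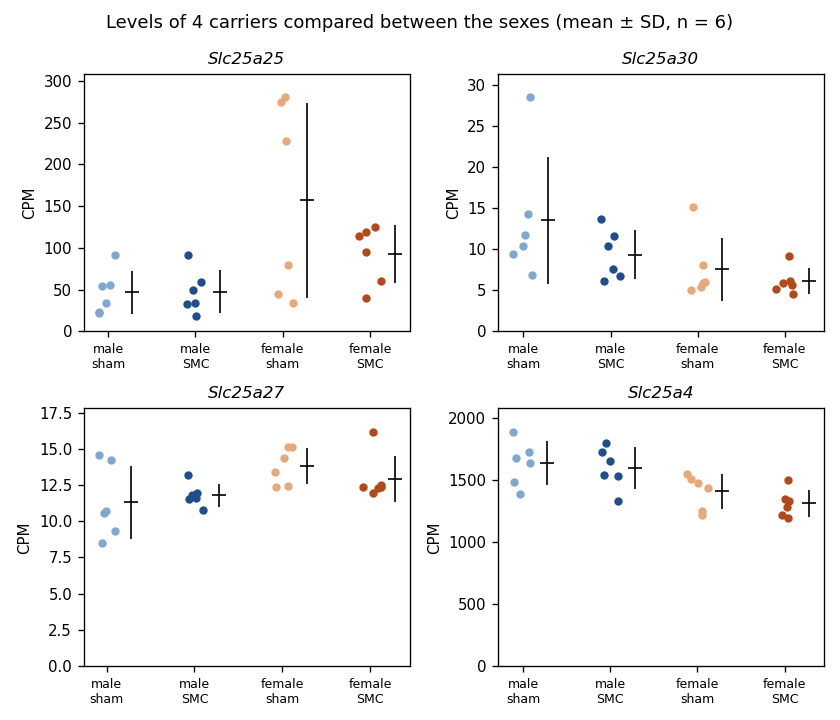
CPM of 4 carriers in each mouse by group, with the mean and SD (n = 6). Slc25a25 splits into 3 low and 3 high mice in female sham, Slc25a30 has single high mice in both sham groups, and Slc25a27 and Slc25a4 overlap between the sexes.

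Slc25a33 was lower in sham males than in sham females (-0.63, SE 0.242, FDR 0.191), an estimate that became -0.35 (FDR 0.445) without female sham replicate 12. Slc25a27 was at 8.503 to 14.6 CPM in sham males (median 10.6) and 12.4 to 15.1 in sham females (median 13.9), at -0.29 (SE 0.112, FDR 0.189). Slc25a46 was at 36.6 to 47.1 in sham males (median 42.1) and 32.8 to 40.5 in sham females (median 37.4), at 0.19 (SE 0.0728, FDR 0.179). Each of these overlapped between the sexes. Slc25a4 was among the 4 carriers higher in males at the unadjusted p, at 0.22 (SE 0.0934, FDR 0.258), together with Slc25a16, and Slc25a17 and Slc25a1 were among the 5 lower, with Slc25a1 at -0.58 (SE 0.247).

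Genes that work with the carriers were read from lists of 31 genes. Proteins of the carrier fold without the Slc25a name include the uncoupling proteins and the outer membrane insertase Mtch2 with its relative Mtch1, and 4 of 5 were tested. Ucp3, the muscle uncoupling protein, was at 178 to 618 CPM in sham females (median 273.1) and 95.7 to 190 in SMC females (median 150.3). In males it was at 186 to 364 in sham (median 218) and 122 to 240 in SMC (median 196.1). All SMC females except replicate 22 lay below every sham female, among which replicates 7, 8 and 12 were again the highest, and the males overlapped. Ucp3 fell by 1.14 on the log2 scale in females (SE 0.251, FDR 0.0497) and by 0.74 over both sexes (SE 0.176, FDR 0.0261), with -0.35 in males (FDR 0.655). The female call held in 3 of the 24 fits without a library, and without female sham replicate 7 the estimate was -0.82. The call over both sexes held in 24 of 24. The difference between the sexes was 0.78 (FDR 0.946). Mtch1 was at -0.16 over both sexes (FDR 0.239).

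**Figure D5:**
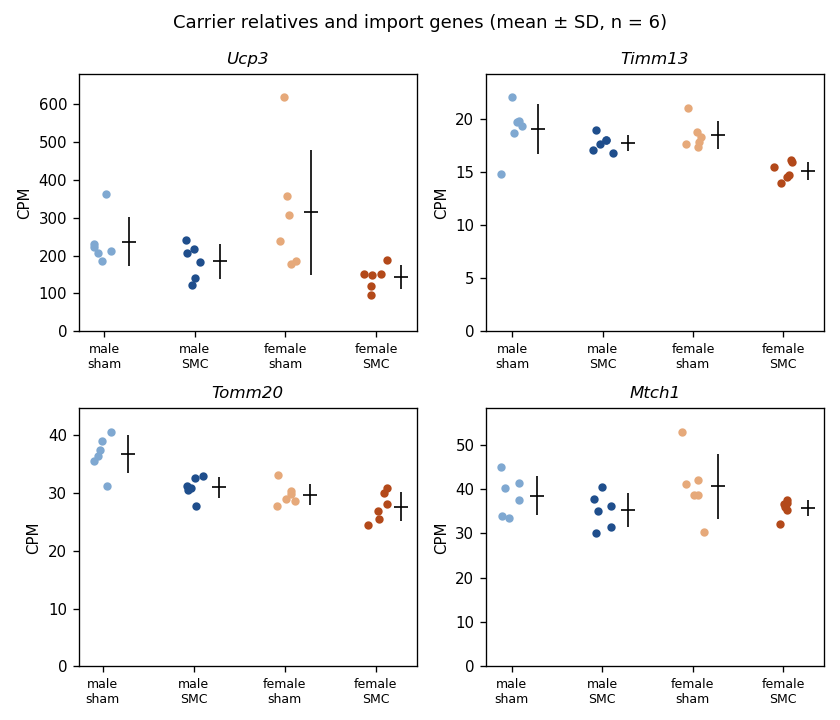
CPM of genes that work with the carriers in each mouse by group, with the mean and SD (n = 6). In females, Ucp3 is lower in every SMC mouse except replicate 22 than in any sham mouse, and Timm13 of the SMC females lies below that of the sham females.

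Carriers are made in the cytosol, recognised by receptors of the TOM complex, escorted by small TIM chaperones and inserted by the TIM22 complex. Of 13 genes of this route, 0 were higher and 4 lower in SMC at the unadjusted p over both sexes, against 7.90% and 9.65% of all genes, and the list median was -0.126. Timm13, a small TIM chaperone, was at 14.8 to 22.03 CPM in sham males (median 19.5), 16.8 to 18.9 in SMC males (median 17.8), 17.4 to 21.01 in sham females (median 18.04) and 13.97 to 16.1 in SMC females (median 15.1). Every SMC female lay below every sham female, where 1.03% of all genes did not overlap in females. Timm13 fell by 0.20 on the log2 scale over both sexes (SE 0.051, FDR 0.0424), a call that held in 6 of the 24 fits without a library. The estimate was -0.29 in females (SE 0.0724, FDR 0.0715) and -0.10 in males (SE 0.072, FDR 0.651), called in neither sex by itself. Tomm20, a presequence receptor of the TOM complex, was at -0.17 over both sexes (SE 0.0488, FDR 0.0551), and Tomm22 and Timm10b were at -0.13 and -0.18. By sex, Tomm20 was at -0.24 in males (SE 0.0689, FDR 0.180) and -0.10 in females (SE 0.0691, FDR 0.58).

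Between sham groups, Tomm20 was higher in males, at 31.3 to 40.6 CPM (median 37) against 27.7 to 33.1 in females (median 29.4), by 0.31 on the log2 scale (SE 0.0689, FDR 0.0197), and this call held in 22 of 24 fits. The subunits of the mitochondrial pyruvate carrier, which is unrelated to the Slc25 fold and admits pyruvate to the matrix, showed no call. Mpc1 and Mpc2 were at 0.27 each in sham males over sham females (FDR 0.116 and 0.242), and at -0.07 and -0.16 for SMC over both sexes (FDR 0.634 and 0.299). Of the outer membrane channels, Vdac1 and Vdac3 were at 0.20 and 0.17 in sham males over sham females, and 0 of 3 passed the unadjusted p for SMC.

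Among others, exons of Slc25a10, Slc25a11, Slc25a18, Slc25a21, Slc25a23, Slc25a25, Slc25a26, Slc25a33, Slc25a35, Slc25a37 and Slc25a46 overlap those of a gene on the opposite strand. The library kit keeps the strand of the RNA, but whether reads were counted by strand is not given in the sources used here, so that a share of these counts may belong to the partner gene.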

How the data were processed

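Total RNA of skeletal muscle was depleted of ribosomal RNA and made into strand-specific libraries. The authors deposited raw counts of reads per Ensembl gene for 24 libraries, without normalization. The submitters' processing notes name cutadapt 1.16, STAR 2.7.9a, featureCounts 1.6, DESeq2 1.34.0 and GRCm39; the annotation release and strand setting are not given in the sources used here. Symbols, biotypes and merged exon lengths came from GENCODE M21 (GRCm38) by gene identifier, with no coordinates moved between builds. Of 55416 genes, 52135 had a symbol, and the rest held 0.357% of counts. Groups followed the labelled sex and treatment.

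Genes kept by filterByExpr (16408) were scaled by TMM and fitted in edgeR 4.0.16 (R 4.3.3) with 1 mean per group (common biological coefficient of variation 0.206). Tests were two-sided, with Benjamini-Hochberg adjustment over all genes tested. CPM used TMM library sizes. Alternatives were DESeq2 1.42.0, limma 3.58.1 voomWithQualityWeights, RLE scaling, at least 10 counts in every sample, no filter, only the compared libraries, and each library left out in turn. The procedure was tested on simulated data. Of 60 pairs of libraries within groups, the lowest ratio of chi-square to degrees of freedom was 10.4, so none counted as a duplicate, and 0 libraries went against the labelled sex. Named were carriers called in any contrast, up to 5 per contrast by smallest p under 0.05, the highest per kilobase in each substrate class, and the pair Slc25a4 and Slc25a5, plus listed partner genes with p under 0.05. The members and lists were chosen with earlier results of these data known. Promoters came from RefSeq (GRCm38.p6). A member counted among those tested is not reported here by name.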

Additional observations from a re-analysis of the deposited data

Results flagged for a closer look

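Each of 23 carriers was examined in each of the 4 groups for a mouse set apart from the other 5 by more than Dixon's 95% limit. By chance, about 1 group in 20 passes this limit if values are normally distributed. Of 92 groups, 8 passed, where 4.6 would pass by chance if the groups were also independent. The carriers were named from results of these data and share libraries, with 3 of the 8 from male sham replicate 4. The 4.6 is therefore only a rough guide. Male sham replicate 4, with little slow fibre RNA, was high for Slc25a30 (28.56 CPM, others 6.83 to 14.3), for Slc25a28 (33.65 CPM, others 19.3 to 24.4) and for Slc25a33 (17.84 CPM, others 7.38 to 11.2). Female sham replicate 7, the other such library, was high for Slc25a30 (15.11 CPM, others 5.07 to 8.09), as was female SMC replicate 19 (9.163 CPM, others 4.55 to 6.15). Female SMC replicate 23 was low for Slc25a5 (11.92 CPM, others 16.3 to 18.4) and high for Slc25a27 (16.17 CPM, others 11.98 to 12.5). Male SMC replicate 15 was high for Slc25a17 (11.42 CPM, others 7.95 to 9.16). Without female SMC replicate 23, the log2 fold change of Slc25a5 over both sexes was -0.32.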

How the results depend on the processing

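Of 74 log2 fold changes recomputed for named carriers and partner genes, 34 had an unadjusted p under 0.05, and 0 of these changed sign under the alternatives run. Of the rest, 20 changed sign in some alternative, among them Slc25a4 in males, Slc25a11 and Slc25a20 in each sex, and Slc25a27, Slc25a28 and Slc25a51 over both sexes, each with a p of 0.428 or more. The median over the carriers also changed sign in males, between the sexes and for the difference in response. DESeq2 called 1 carrier for SMC in females, 3 over both sexes (Slc25a5, Slc25a23 and Slc25a33) and 1 between the sexes, where edgeR called 0, 1 and 0. Between the sexes, voomWithQualityWeights and the fit without both libraries with little slow fibre RNA (Slc25a30) also called 1. Without a filter, 0 carriers were called over both sexes (46 carriers tested). With a library left out, 0 to 1 carriers were called over both sexes and 0 to 1 between the sexes (1 without male sham 3 or female sham 7, 9, 10 or 11). Carriers at an unadjusted p under 0.05 numbered 1 in males, against 2 with DESeq2, 4 with voomWithQualityWeights, 2 without both libraries with little slow fibre RNA and 0 to 3 with a library left out. For the difference between the sexes in response they numbered 2, against 1 with RLE scaling, 4 with voomWithQualityWeights and 0 to 3 with a library left out. Leaving out a library gave 9 to 12 over both sexes, 5 to 9 in females and 5 to 10 between the sexes, the lowest of the last without male sham 6 or female sham 8. The cause of these shifts was not tested. All genes called in males numbered 0 with edgeR, 133 with DESeq2 and 93 with voomWithQualityWeights, and over both sexes 388, 778 and 541, with 189 without a filter. In females they numbered 56, 268 and 16, and 14 when only the female libraries were fitted. Between the sexes they numbered 324, 575 and 368, with 511 without both libraries with little slow fibre RNA. No paired analysis was run, because the labels number the libraries in a single series and state no pairing. The paper reports that sham and SMC mice were housed in pairs in some experiments and in separate cages in others. Which of these holds for the sequenced mice is not given, so shared housing could not be taken into account. Carriers with few counts, such as Slc25a18 and Slc25a2, carry wide counting error.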
